A study of Mus musculus with 12 samples.

Results

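Integrins are cell surface receptors made of 1 alpha and 1 beta chain, and laminins are basement membrane proteins made of 1 alpha, 1 beta and 1 gamma chain. The genes of both families were followed in SVR tumors, which come from a mouse angiosarcoma cell line. All genes of the deposited count table named Itga or Itgb, or Lama, Lamb or Lamc with a digit, were taken, without the Itgb1bp genes, Itgbl1 and pseudogenes. This gave 39 of 54232 genes, of which 27 encode integrin chains and 11 encode laminin chains. The name rule also takes Itgb3bp, which encodes a kinetochore protein and no chain.

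SVR cells were grown as xenografts in nude mice, which lack T cells, and the labels give C57BL/6 as the strain. Mice received daily gavage of vehicle (control), the MEK inhibitor trametinib at 1 mg/kg, the VEGFR inhibitor cediranib at 3 mg/kg, or both drugs at these doses (combination). RNA of 3 whole tumors per group was captured with exome probes and sequenced, which gave 9478865 to 11666094 counts per tumor. The labels do not say whether the 3 tumors of a group came from separate mice, so p-values measure the spread between these samples. All tumors came from 1 cell line, and reads of tumor cells and of mouse stroma cannot be separated. How long each tumor was treated is not stated in the labels.

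Integrin alpha chains largely set which matrix protein a receptor binds. Alpha3, alpha6 and alpha7 bind laminins, alpha1, alpha2, alpha10 and alpha11 bind collagens, and alpha5 and the alphav receptors bind proteins with an RGD sequence, such as fibronectin and vitronectin. Vessels rest on laminins that carry the alpha4 or alpha5 chain, whereas epidermis is anchored by a laminin with alpha3 and beta3 chains through the integrin of alpha6 and beta4.

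Levels are given as normalized CPM (counts scaled to library size, with TMM factors), and differences as log2 fold changes with their standard error (SE) from 1 edgeR quasi-likelihood fit to all 12 tumors. The FDR is the Benjamini-Hochberg value over the 12897 genes that passed a filter on low counts. A call required an FDR under 0.05 and a log2 fold change of 1.5 or more in either direction. Of the 39 members 31 were tested. The other 8 were Itga8, Itgal, Itgad, Itgae, Itgb8, Itgb2l, Lama1 and Lamc3, none of which reached 1.5 CPM in any tumor, with Itgb2l at 0 counts in all of them. A count of 3, the limit that 0 counts allow, lay between 0.251 and 0.349 CPM in a tumor, for counting error only.

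Marker lists of several cell types were summed in each tumor. As angiosarcoma is a tumor of endothelial cells, endothelial marker reads can come from tumor cells as well as from vessels. Endothelial markers were expressed in all control tumors, with a summed level of 254 to 504 CPM over 11 genes, although Emcn, a marker of capillary and venous endothelium, stayed at or below 0.30 CPM in all 12 tumors. The summed level was 114 to 173 CPM in trametinib treated, 155 to 394 CPM in cediranib treated and 79.4 to 143 CPM in combination treated tumors. The 20 epidermal markers summed to 68.0 to 113 CPM in control and 49.5 to 60.3 CPM in trametinib treated tumors, and to 346 to 528 CPM in combination treated tumors. Of the cediranib treated tumors, replicate 2 had 78.6 CPM and the other 2 had 280 and 288 CPM. Klf5, Ivl and Ppl made up much of the low sums, with 24.2, 33.9 and 11.4 of 76.4 CPM in control replicate 2. Ppl went the other way from the sum after trametinib, with 39.9, 29.7 and 32.9 CPM, against 17.7, 11.4 and 3.84 CPM in control tumors. Skeletal muscle markers stood apart in control replicate 2 (16690 CPM) and trametinib replicate 2 (23950 CPM), against 17.4 to 2039 CPM in the other 10 tumors. Fibroblast markers summed to 163 to 1169 CPM in control, 1243 to 1614 CPM in trametinib treated, 114 to 483 CPM in cediranib treated and 688 to 1020 CPM in combination treated tumors. Macrophage markers ran from 403 to 701 CPM in control, 315 to 439 CPM in trametinib treated, 294 to 454 CPM in cediranib treated and 178 to 316 CPM in combination treated tumors. The 8 lymphocyte markers summed to at most 1.91 CPM in any tumor. Single genes carried other sums too. Col3a1 had 1296 of the 1365 CPM of fibroblast markers in trametinib replicate 1. Mrc1 had 474 of the 701 CPM of macrophage markers in control replicate 2.

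**Figure D1:**
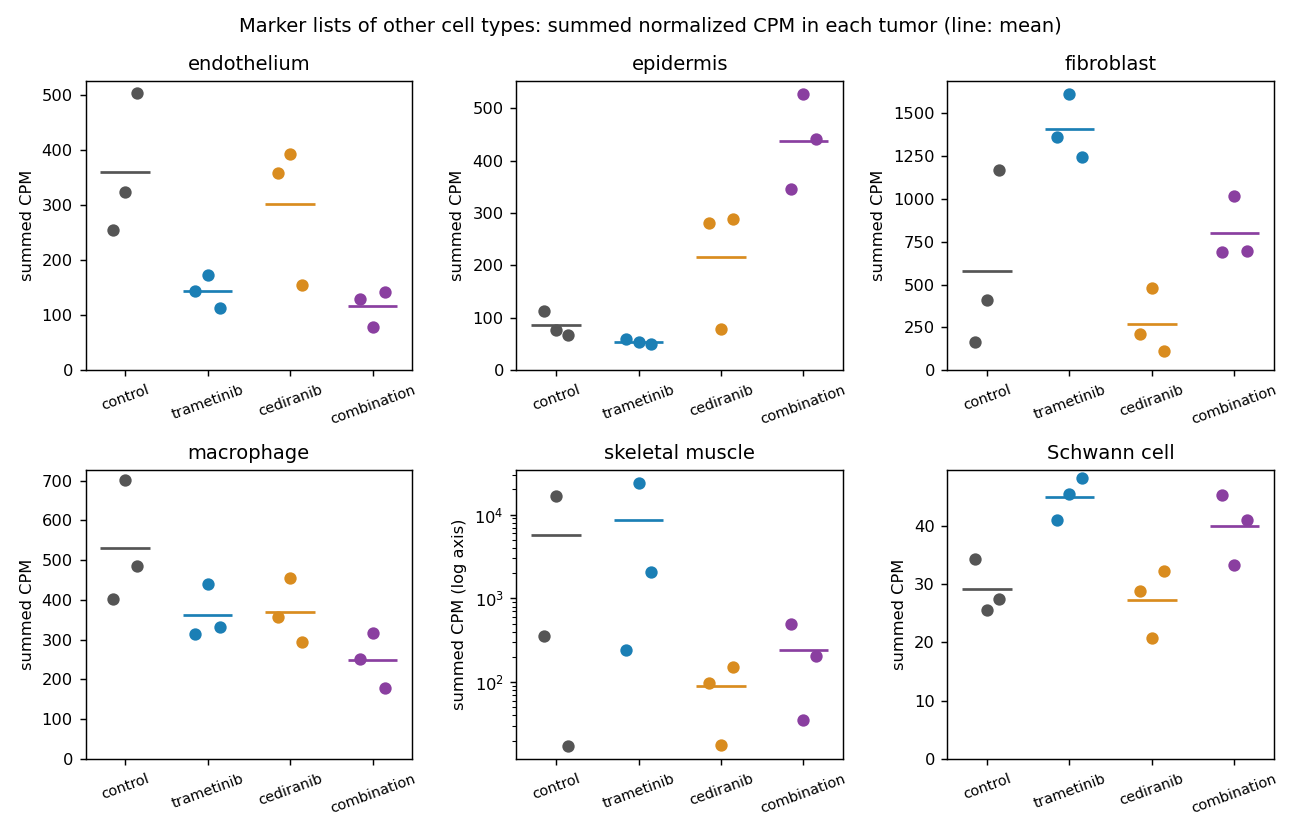
Summed normalized CPM of 6 marker lists (vertical axes, linear except for skeletal muscle, which is logarithmic) in each of the 12 tumors by treatment, with points for tumors and lines for group means. Epidermal markers lay highest in combination treated tumors (346 to 528 CPM), and muscle markers stood apart in control replicate 2 and trametinib replicate 2.

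In control tumors the chains differed widely in level. Compared per kilobase of exon, Itgb1, the beta chain that most alpha chains pair with, stood first at 183 ± 53.9 CPM per kb (SD, n = 3). Lamb1, the laminin beta1 chain, followed with 83.8 ± 6.14 CPM per kb. Itga5, the fibronectin receptor chain, had 66.2 ± 10.5 and Lamc1, the common laminin gamma1 chain, 55.7 ± 10.4 CPM per kb, and the values of these neighbours overlapped. Next came Itga3 (37.3 ± 3.66 CPM per kb), Itga6 (28.6 ± 2.38) and Itgav (18.7 ± 1.64), each above the next without overlap between tumors. Itgb3 (12.6 ± 3.16) and Lama5 (10.1 ± 2.00) overlapped with each other. The epithelial laminin chains Lamb3 and Lama3 stood near the bottom, with 0.068 ± 0.048 CPM per kb for Lamb3 and 0.026 ± 0.015 for Lama3.

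After trametinib, 4 members were called, 2 lower and 2 higher. Itga6 and Lamb1 fell, whereas Itga7 and Itga10 rose. Among all genes tested 1.43% were called lower and 0.977% higher in this comparison. The median log2 fold change of the 31 members was -0.067, against 0.0057 for all genes. At the FDR alone 6 members passed, against 6.12% of all genes, and the added pair was Lama5 and Itga3, both lower.

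Itga6 (ENSMUSG00000027111, GRCm38 chromosome 2, 71745616 to 71856771, plus strand) encodes the alpha6 chain, a laminin receptor of endothelial and epithelial cells. It had 271, 233 and 270 CPM in the control tumors and 31.4, 29.6 and 20.4 CPM in the trametinib treated tumors. The groups lay far apart, with the highest trametinib value well below the lowest control value. The log2 fold change was -3.25 (SE 0.22), a 9.51-fold lower level, with an FDR of 1.62e-05. The 3 cediranib treated tumors had 301, 226 and 221 CPM, a range that included the control values 233, 270 and 271. Combination treated tumors had 52.5, 33.0 and 51.1 CPM, again below every control tumor. Their log2 fold change from control was -2.50 (SE 0.21), with an FDR of 0.000225, and from cediranib -2.45 (SE 0.21), with an FDR of 0.000202. Every combination treated tumor lay above every trametinib treated tumor, but this difference (log2 fold change 0.75, SE 0.21, FDR 0.0941) did not pass. In order of mean level per kilobase, Itga6 stood at place 6 of 39 in control and cediranib treated tumors, at place 16 after trametinib and at place 14 after the combination. Itga6 was called in all 3 comparisons under each of the 11 other settings tried and with each tumor left out in turn. With the endothelial marker score in the model the log2 fold changes were -2.93 for trametinib and -2.09 for the combination compared to control, the latter with an FDR of 0.0484.

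The other laminin-binding alpha chains differed from Itga6, since Itga7 rose after trametinib and Itga3 fell less than Itga6. Itga7 (chromosome 10, 128933818 to 128958282), the main laminin receptor chain of muscle, had 6.39, 4.97 and 6.97 CPM in control tumors. It had 37.4, 22.6 and 34.8 CPM after trametinib, with all 3 values above control, a log2 fold change of 2.37 (SE 0.48) and an FDR of 0.0126. Cediranib treated tumors had 5.60, 4.82 and 7.75 CPM and overlapped with control. Combination treated tumors spread from 11.3 and 15.5 to 50.6 CPM, all above control and cediranib treated tumors. The log2 fold change was 2.08 (SE 0.48, FDR 0.0199) from control and 2.09 (SE 0.48, FDR 0.0232) from cediranib. Summed skeletal muscle markers ranged from 17.4 to 16690 CPM in control, 245 to 23950 CPM in trametinib treated, 18 to 150 CPM in cediranib treated and 35.5 to 494 CPM in combination treated tumors. Their part in the Itga7 differences was not tested beyond the fit without both muscle-rich tumors. The trametinib call was lost without control replicate 2 (FDR 0.0562) and without both muscle-rich tumors (log2 fold change 2.43, FDR 0.069). The combination call from control was lost without control replicate 2, control replicate 3 or combination replicate 3, with log2 fold changes of 1.13 to 2.18 in these fits, and without both muscle-rich tumors (1.95, FDR 0.0818). That from cediranib was lost without cediranib replicate 1, cediranib replicate 2 or combination replicate 3, with log2 fold changes of 1.15 to 2.03. It was also lost with the epidermal, macrophage, endothelial or fibroblast score and with only the compared groups. In these 5 fits the log2 fold change was 1.07 to 2.2 and the FDR 0.0649 to 0.303. Itga7 overlaps an exon of Mettl7b on the opposite strand.

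Itga3 (chromosome 11, 95044474 to 95076801) encodes the alpha3 chain, a receptor for laminins with an alpha3 or alpha5 chain. It had 190, 220 and 230 CPM in control tumors and 133, 85.4 and 128 CPM after trametinib, all lower. Its log2 fold change was -0.88 (SE 0.17), with an FDR of 0.0114, short of the fold minimum for a call. It did not pass the FDR with the endothelial score (-0.70, FDR 0.245) or without both muscle-rich tumors (-0.68, FDR 0.0868). Combination treated tumors had 177, 149 and 212 CPM and overlapped with control, with a log2 fold change of -0.25 (SE 0.17, FDR 0.388). Itgb4, the hemidesmosome partner of alpha6, had 17.0, 24.3 and 18.2 CPM in control tumors. After trametinib it had 40.7, 48.2 and 5.94 CPM, and after the combination 35.7, 16.0 and 124 CPM, both overlapping with control. Its log2 fold changes were 0.67 (SE 0.73, FDR 0.684) and 1.56 (SE 0.74, FDR 0.198). It overlaps an exon of an antisense gene with counts of its own, so these reads may not all be Itgb4.

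Within each tumor, the makeup of the laminin-binding alpha chains can be given as a share of their summed CPM per kilobase, as a description without a test. Itga6 made up 39.8% to 46.9% of Itga3, Itga6 and Itga7 in control tumors and 40.9% to 46.6% after cediranib. It made up 7.80% to 15.6% after trametinib and 11.6% to 15.2% after the combination. Itga7 went from 0.946% to 1.23% in control to 13.3% to 14.8% after trametinib and 3.65% to 12.8% after the combination. Itga3 was the most abundant of the 3 in every tumor, with 51.9% to 59.2% in control, 71.2% to 77.4% after trametinib and 75.7% to 82.4% after the combination.

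**Figure D2:**
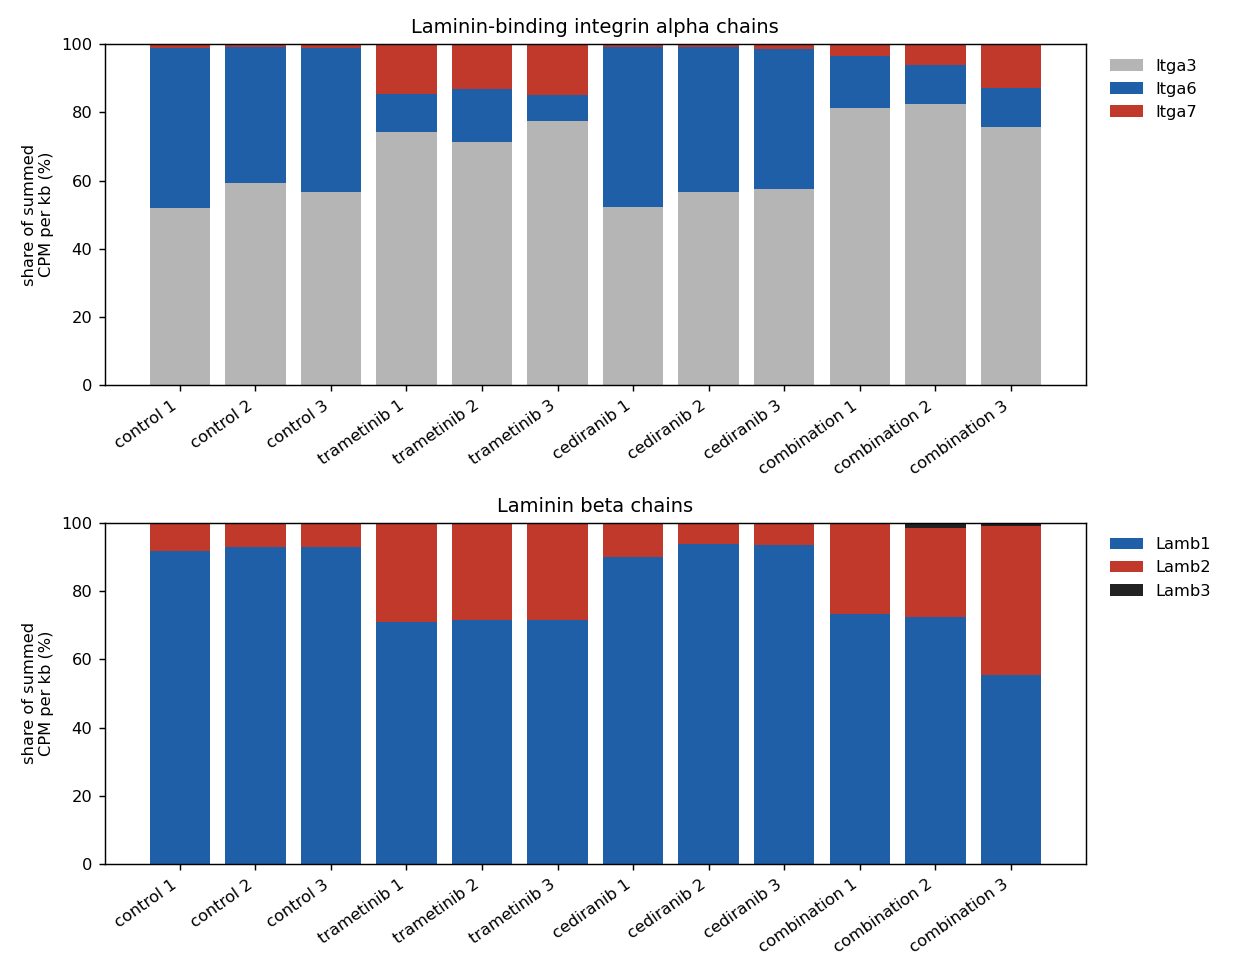
Shares of summed CPM per kilobase of exon (vertical axes, %) of 3 laminin-binding integrin alpha chains and of 3 laminin beta chains in each of the 12 tumors (horizontal axes). Itga6 held 39.8% or more in control and cediranib treated tumors and 15.6% or less in the others, and Lamb2 held 26.1% or more in all tumors that received trametinib.

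Among the laminins, Lamb1 (chromosome 12, 31265234 to 31329493) encodes the beta1 chain of most vascular laminins. It had 769, 834 and 891 CPM in control tumors and 304, 306 and 230 CPM after trametinib, without overlap. This was a log2 fold change of -1.57 (SE 0.14), a 2.97-fold lower level, with an FDR of 0.000101. Cediranib treated tumors had 713, 871 and 759 CPM and overlapped with control. Combination treated tumors had 374, 293 and 324 CPM. Their log2 fold change was -1.33 (SE 0.14, FDR 0.000475) from control and -1.24 (SE 0.14, FDR 0.000975) from cediranib, both short of the fold minimum. The difference from control did not pass the FDR with the epidermal (-1.07, FDR 0.0541) or the endothelial score (-0.93, FDR 0.112). The trametinib call was lost without trametinib replicate 3, where the log2 fold change was -1.46, and with the endothelial marker score in the model, where it was -1.26. In both of these fits the FDR was at most 0.00598.

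Lama5 (chromosome 2, 180176373 to 180225859) encodes the alpha5 chain, found under mature endothelium and many epithelia. It had 141, 103 and 100 CPM in control tumors and 63.7, 44.8 and 39.2 CPM after trametinib, all lower, with a log2 fold change of -1.22 (SE 0.23) and an FDR of 0.00921. It did not pass with the endothelial score (-1.14, FDR 0.133), with the fibroblast score (-1.08, FDR 0.108) or without both muscle-rich tumors (-1.23, FDR 0.0667). Cediranib treated tumors had 153, 107 and 100 CPM. Combination treated tumors had 69.7, 60.9 and 89.3 CPM, all below control, but the log2 fold change of -0.64 (SE 0.23, FDR 0.0949) did not pass.

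Lamb2 (chromosome 9, 108479736 to 108490530), the beta2 chain of vessel, kidney and synapse laminins, went the other way from Lamb1. Control tumors had 41.8, 38.5 and 41.8 CPM and cediranib treated tumors 46.1, 34.6 and 30.3 CPM. Trametinib treated tumors had 76.3, 74.5 and 55.8 CPM, all above control, with a log2 fold change of 0.76 (SE 0.28, FDR 0.141) that did not pass. Combination treated tumors had 82.5, 64.8 and 156 CPM, and the last of these lay far from the other two. Their log2 fold change was 1.31 (SE 0.28, FDR 0.0141) from control and 1.45 (SE 0.28, FDR 0.0108) from cediranib, past the FDR and short of the fold minimum. The difference from control passed the fold minimum without combination replicate 2 (log2 fold change 1.56), and that from cediranib did so without cediranib replicate 1, combination replicate 1 or combination replicate 2 (1.6 to 1.71). Without combination replicate 3 they were 0.85 and 1.00. The FDR from control was 0.0548 without control replicate 2 and 0.0511 without control replicate 3. It was 0.129 to 0.406 with the epidermal, macrophage or endothelial score and 0.0669 without both muscle-rich tumors, and the FDR from cediranib was 0.14 with the macrophage and 0.0867 with the fibroblast score. As a share of Lamb1, Lamb2 and Lamb3 per kilobase, Lamb2 took 6.99% to 8.14% in control and 6.08% to 9.49% after cediranib. It took 28.4% to 29.0% after trametinib and 26.1% to 43.6% after the combination.

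Lamc1, the gamma1 partner of these chains, had 459, 376 and 548 CPM in control tumors, 338, 389 and 259 CPM after trametinib, 378, 442 and 278 CPM after cediranib and 330, 317 and 397 CPM after the combination. Its log2 fold changes of -0.49 (SE 0.20, FDR 0.191) and -0.41 (SE 0.20, FDR 0.219) for trametinib and the combination compared to control did not pass. Lama4, the alpha4 chain of endothelial laminin, varied most within the control group, with 15.9, 40.9 and 124 CPM. It had 43.1, 41.5 and 18.5 CPM after trametinib, 12.6, 31.8 and 14.7 CPM after cediranib, and 10.7, 5.90 and 20.5 CPM after the combination. Its log2 fold changes from control were -0.81 (SE 0.65, FDR 0.552) for trametinib and -2.28 (SE 0.69, FDR 0.0561) for the combination. Control replicate 3, with the highest Lama4, also had the highest endothelial (504 CPM) and fibroblast (1169 CPM) marker levels of the control tumors. Without it the log2 fold change was 0.27 for trametinib and -1.20 for the combination. The combination difference was called without control replicate 1 (log2 fold change -2.73, FDR 0.0195). It was also called by DESeq2, without the filter on low counts and with the fibroblast score. The trametinib difference was called lower with the fibroblast score only.

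Summed endothelial markers were lower than control in trametinib and combination treated tumors, as were Itga6, Lamb1 and Lama5. Cediranib replicate 3 had 155 CPM of endothelial markers, within the trametinib range of 114 to 173 CPM. It had 221 CPM of Itga6, 759 CPM of Lamb1 and 100 CPM of Lama5. Of 10 tested endothelial markers 4 were called lower after trametinib and 5 after the combination compared to control, and the median log2 fold changes were -1.86 and -2.30. In bulk tumors fewer cells of a type and less RNA per cell cannot be told apart. The part of the endothelial marker levels in these differences was not tested beyond the fits with the endothelial score given here. Those fits cannot separate tumor cells from vessel cells, which can each make these markers. The fibroblast marker levels were highest after trametinib, and their part was not tested beyond the fit with the fibroblast score. The trametinib calls of Itga7 and Itga10 were lost with the fibroblast score, at log2 fold changes of 1.87 and 2.15, and with the endothelial score, at 2.52 and 2.73.

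**Figure D3:**
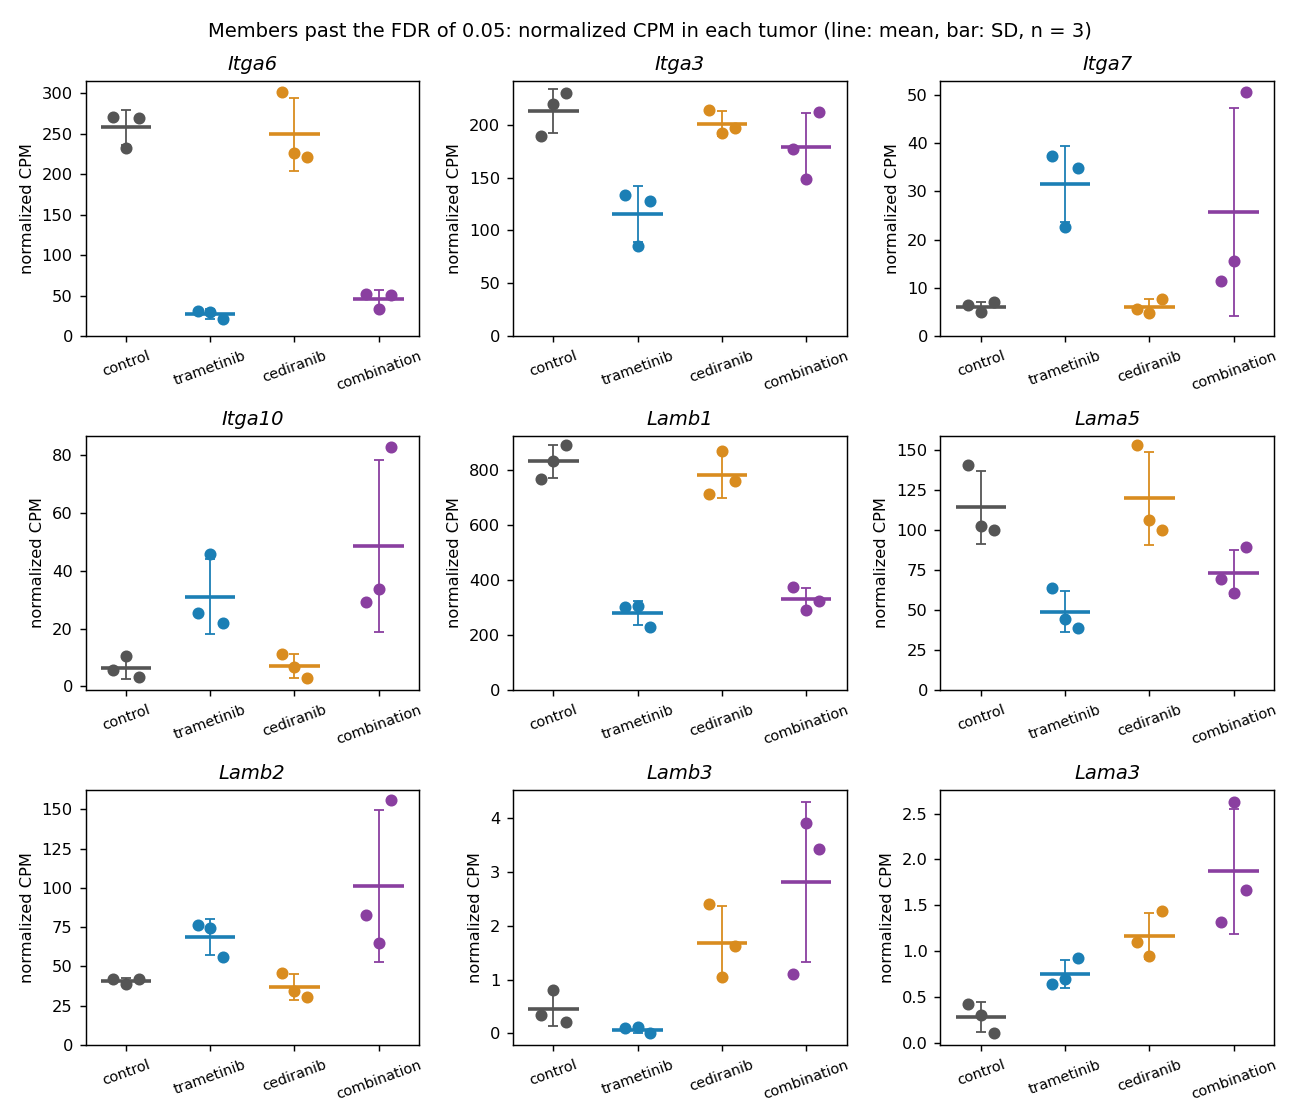
Normalized CPM (vertical axes, each from 0) of the 9 members past the FDR of 0.05 in any comparison, in each of 3 tumors per treatment, with the mean as a line and the SD as a bar. For Itga6 and Lamb1 the tumors that received trametinib lay below all others (at most 52.5 and 374 CPM), and for Itga7, Itga10 and Lamb2 they lay above all others.

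The promoters of 3 genes are shown because the genes moved in opposite directions after trametinib: Lama5 and Lamb1 fell and Itga10 rose. The sequences are those of RefSeq on GRCm38.p6, where 25 of the 39 members had an entry, and run 5′ to 3′ on the gene's strand up to the base before the gene. Lama5 stands at chr2:180225860-180226109 (minus strand), Lamb1 at chr12:31265043-31265233 (plus strand) and Itga10 at chr3:96645334-96645583 (plus strand). For Lamb1 the last 59 of the 250 bases are left out, since the count table places them inside the gene. Capitals mark the letters GGGCGG (GC box) or GGAATG (TEAD motif) on either strand.
Lama5: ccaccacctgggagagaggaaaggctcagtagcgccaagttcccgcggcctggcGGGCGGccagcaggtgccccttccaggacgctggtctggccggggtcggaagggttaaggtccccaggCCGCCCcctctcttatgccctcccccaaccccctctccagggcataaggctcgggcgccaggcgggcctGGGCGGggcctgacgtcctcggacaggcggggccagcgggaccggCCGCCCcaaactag
Lamb1: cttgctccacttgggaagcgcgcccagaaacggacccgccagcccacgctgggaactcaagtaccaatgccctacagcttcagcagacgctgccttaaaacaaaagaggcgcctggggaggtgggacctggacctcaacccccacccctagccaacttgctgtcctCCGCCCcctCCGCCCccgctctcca
Itga10: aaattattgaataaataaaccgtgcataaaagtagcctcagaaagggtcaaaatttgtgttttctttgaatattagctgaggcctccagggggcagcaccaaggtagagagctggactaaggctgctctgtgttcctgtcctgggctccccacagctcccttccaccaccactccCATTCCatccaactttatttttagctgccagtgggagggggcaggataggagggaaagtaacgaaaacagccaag
The 250 bases before each RefSeq start were searched on both strands for TGANTCA (AP-1), CCGGAA (ETS), GGGCGG (GC box), CACGTG (E-box), GGAATG (TEAD) and TGACGTCA (CRE). Lama5 held 4 GC boxes and Lamb1 held 2, and Itga10 held 1 TEAD motif and 0 GC boxes. The other 4 motifs had 0 matches in these windows. Itga3, Lamb2 and Lamb3 also had entries, which are not printed. Itga3, which fell after trametinib, held an ETS match at -89 to -84 and 3 GC boxes in 1 entry and 1 GC box in the other. Lamb3 held 1 TEAD motif in 1 of its 2 entries, and Lamb2 held 0 of the 6 motifs. By the gene coordinates of the count table, the Lamb3 windows and the second Itga3 window lie inside the gene. The first Itga3 window, with the ETS match, and the Lamb2 window lie partly inside. Of 32851 RefSeq promoters of this length 32.7% held a GC box, 12.6% the TEAD motif, 12% the ETS motif, 6.75% the AP-1 motif, 6.02% the E-box and 1.55% the CRE. A match describes letters and is not a binding site.

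Itga10 (ENSMUSG00000090210, chromosome 3, 96645584 to 96664513), a collagen receptor chain best known from cartilage, was the only collagen-binding chain called in the reported fit. It had 5.62, 10.6 and 3.13 CPM in control tumors and 25.5, 46.0 and 21.9 CPM after trametinib, without overlap. This gave a log2 fold change of 2.26 (SE 0.57) and an FDR of 0.0358. Cediranib treated tumors had 11.4, 6.72 and 3.06 CPM. Combination treated tumors had 29.1, 33.7 and 82.9 CPM, all above every control and cediranib treated tumor. The log2 fold change was 2.91 (SE 0.57, FDR 0.0107) from control and 2.78 (SE 0.57, FDR 0.0142) from cediranib. The trametinib call rested on the full set of tumors, since the FDR was 0.0548 to 0.125 without control replicate 1, control replicate 3 or any 1 of the 3 trametinib treated tumors. With the replicate number as a block the trametinib call was also lost. The same held with the epidermal, endothelial or fibroblast score and without both muscle-rich tumors, with an FDR of 0.0533 to 0.256 over these 5 fits. The combination call from control held with each tumor left out in turn, and that from cediranib was lost without combination replicate 3 (log2 fold change 2.16, FDR 0.0502). The call from cediranib was also lost with the macrophage, endothelial or fibroblast score (log2 fold change 2.69 to 3.28, FDR 0.0655 to 0.09). Reads of Itga10 can include those of Gm42957, which shares an exon on the same strand. The other collagen-binding chains, Itga1, Itga2 and Itga11, had log2 fold changes below 0 after trametinib and after the combination, and none passed in the reported fit. Itga2 was called lower after trametinib by DESeq2, without the filter, with only the compared groups and with the epidermal score. Compared to control, Itga11 was called lower after the combination by DESeq2, without the filter, with the fibroblast score and without control replicate 1. Itga1 was so without combination replicate 3, and Itga2 without the filter. Itga10 made up 13.7% to 62.5% of the summed CPM per kilobase of these 4 chains in control tumors, 82.9% to 88.8% after trametinib and 89.1% to 95.3% after the combination.

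Of the 6 tested chains that bind RGD proteins, none was called in any comparison of the reported fit. For the combination compared to control, Itgb6 was called higher by DESeq2 and without the filter on low counts. Without the filter it was also called higher after trametinib. Itgb5 was called higher with the endothelial score for trametinib compared to control and for the combination compared to cediranib. Itga5 had 280, 317 and 382 CPM in control tumors, 209, 244 and 148 CPM after trametinib, 249, 400 and 265 CPM after cediranib and 220, 207 and 145 CPM after the combination. All tumors that received trametinib lay below control, with log2 fold changes of -0.70 (SE 0.23, FDR 0.105) and -0.78 (SE 0.23, FDR 0.0561), and neither passed. Itgb3, the beta chain of the vitronectin receptor and a marker of angiogenic endothelium, had 67.5, 95.5 and 60.1 CPM in control tumors, 60.6, 38.6 and 37.8 CPM after trametinib, 51.2, 69.0 and 59.9 CPM after cediranib and 46.8, 36.8 and 53.1 CPM after the combination. Its log2 fold changes were -0.70 (SE 0.23, FDR 0.0961) and -0.71 (SE 0.23, FDR 0.0704). Itgav, its alpha partner, had 221, 186 and 197 CPM in control tumors, 232, 194 and 155 CPM after trametinib, 212, 233 and 188 CPM after cediranib and 244, 254 and 214 CPM after the combination. The groups overlapped, with log2 fold changes of -0.06 (SE 0.15, FDR 0.883) and 0.24 (SE 0.15, FDR 0.336).

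Itgb1, the shared beta1 chain, had 532, 738 and 971 CPM in control tumors, 775, 708 and 785 CPM after trametinib, 559, 697 and 708 CPM after cediranib and 851, 760 and 551 CPM after the combination. The control tumors alone spanned all other values. Its log2 fold changes were 0.02 (SE 0.21, FDR 0.976) for trametinib and -0.05 (SE 0.21, FDR 0.905) for the combination, and scaled by library totals alone the latter was 0.08.

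Of the 8 leukocyte integrin chains 4 were tested (Itgam, Itgax, Itgb2 and Itgb7), and 0 were called in any comparison. The alpha4 and alpha9 chains were not called in the reported fit either, but Itga9 was called lower after trametinib with the epidermal score. Over all 27 members not called after trametinib the log2 fold changes ran from -2.77 to 4.36. The upper end was Itgb6, a chain of few counts (1 count in all 3 control tumors together).

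**Figure D4:**
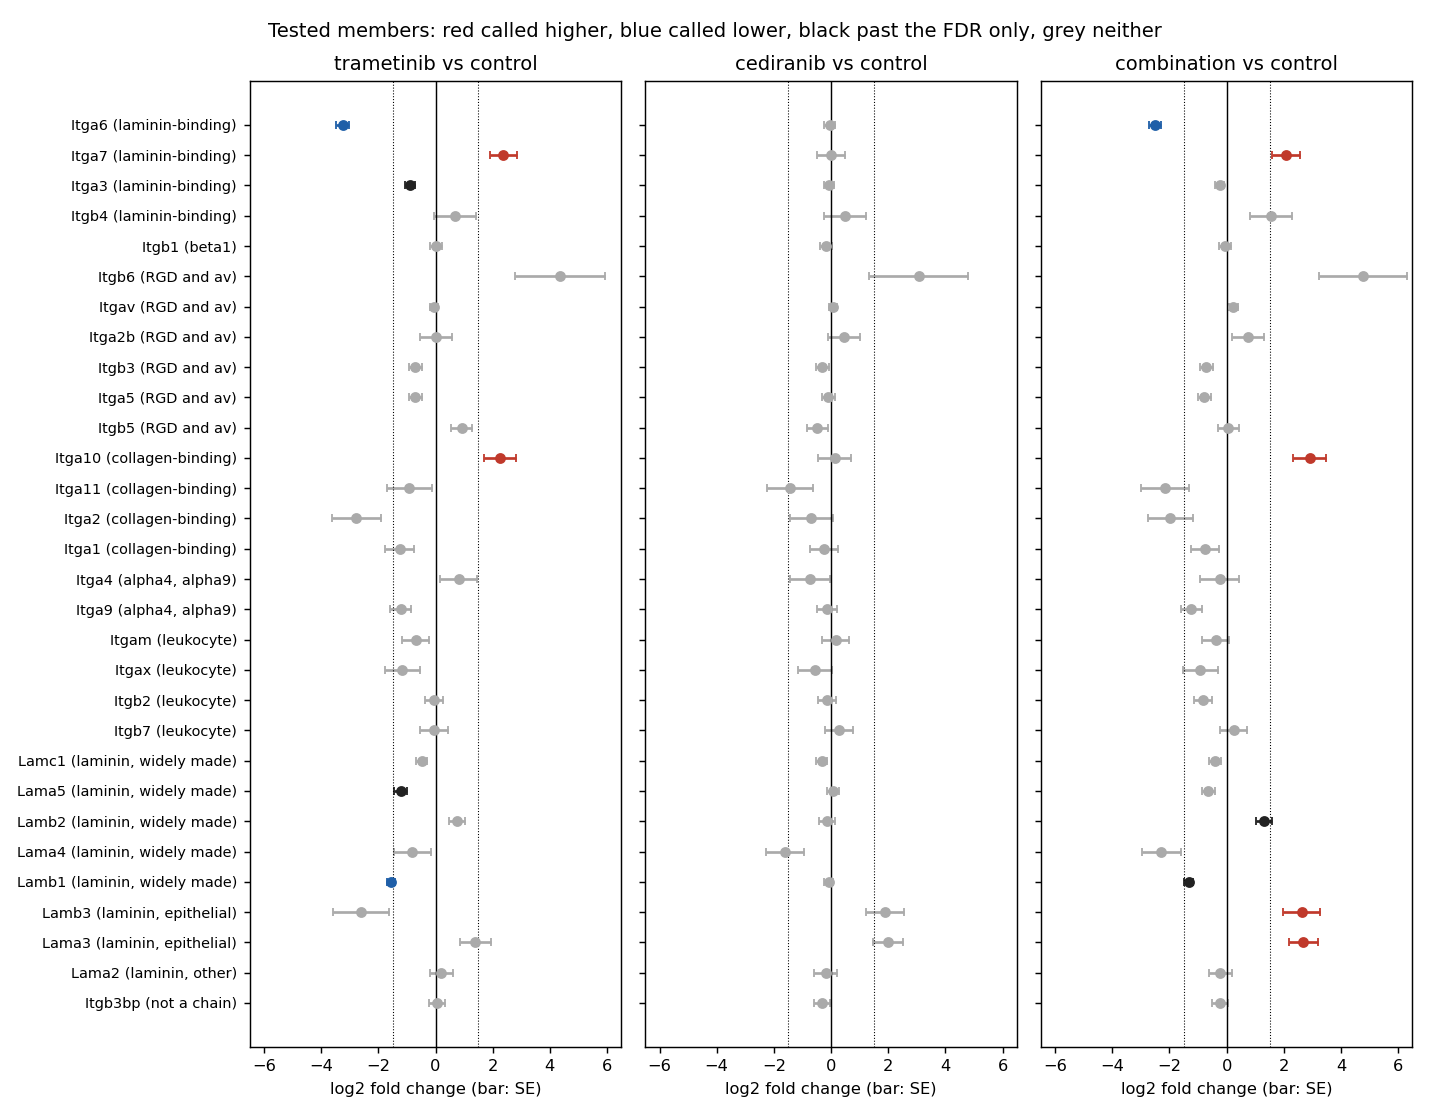
Log2 fold changes with SE (horizontal axes) of tested members, ordered by role, for trametinib, cediranib and the combination compared to control, with dotted lines at the fold minimum of 1.5. Colored points were called, black points passed the FDR only, and all points shown for cediranib are grey.

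After the combination, 5 members were called compared to control, 1 lower (Itga6) and 4 higher (Itga7, Itga10, Lamb3 and Lama3), against 1.71% of all genes called lower and 1.91% called higher. At the FDR alone 7 members passed, with Lamb2 and Lamb1 added, against 9.98% of all genes. The median log2 fold change of the members was -0.25, against 0.0016 for all genes. Compared to cediranib, 3 members were called, 1 lower (Itga6) and 2 higher (Itga7 and Itga10), against 1.16% and 1.29% of all genes. At the FDR alone there were 5, with Lamb2 and Lamb1 added, against 7.68% of all genes. Compared to trametinib, 1 member was called higher (Lamb3) and 0 lower, against 0.535% and 0.14% of all genes, and the FDR alone gave the same count against 0.969% of all genes. These comparisons share the control or the combination treated tumors.

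Lamb3 and Lama3 encode the beta3 and alpha3 chains of the epidermal anchoring laminin. Both were near the limit that 0 counts allow in control tumors. Lamb3 (chromosome 1, 193207699 to 193343878) had 0.34, 0.81 and 0.20 CPM in control tumors and 0.091, 0.12 and 0 CPM after trametinib, where the 3 tumors held 2 counts in all. It had 2.40, 1.04 and 1.63 CPM after cediranib and 1.11, 3.90 and 3.43 CPM after the combination, both above control in every tumor. The log2 fold change of the combination was 2.63 (SE 0.65, FDR 0.0266) compared to control and 5.22 (SE 0.84, FDR 0.0237) compared to trametinib. In counts, the ratio of combination to trametinib was 45.3, from 91 and 2 counts, with a 95% interval of 12.2 to 380 for counting error only. The call from trametinib held in 1 of 6 fits with a tumor left out, the one without combination replicate 1. Without combination replicate 2 or 3 or any 1 of the trametinib treated tumors the FDR was 0.0672 to 0.087. The call from control was lost without control replicate 1 or 3 and without combination replicate 2 or 3 (FDR 0.0671 to 0.107).

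Lama3 had 0.43, 0.30 and 0.10 CPM in control tumors, 0.64, 0.70 and 0.92 CPM after trametinib, 1.10, 0.95 and 1.44 CPM after cediranib and 1.31, 2.63 and 1.67 CPM after the combination. Every treated tumor lay above every control tumor. The combination was called against control, with a log2 fold change of 2.68 (SE 0.51, FDR 0.00917), in each fit with a tumor left out. Trametinib had a log2 fold change of 1.38 (SE 0.54, FDR 0.169), which did not pass.

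Of the 16 tested epidermal markers 8 were called higher after the combination compared to control and 8 compared to trametinib. After trametinib 15 of the 16 had log2 fold changes below 0 compared to control, with 1 called lower, whereas Lama3 lay above control in each tumor. Dsp, the desmoplakin of epithelial junctions, had 105, 179 and 164 CPM after the combination and 0.091, 0 and 0 CPM after trametinib. It had 25.0, 0.61 and 0.71 CPM in control and 83.7, 0.47 and 95.3 CPM in cediranib treated tumors. Of the 20 listed epidermal markers 9 to 14 were at 0 in each trametinib treated tumor, against 0 to 1 in the combination. In control tumors 2, 10 and 10 were at 0, and in cediranib treated tumors 0, 5 and 0. Cediranib replicate 2, with epidermal markers at 78.6 CPM, within the control range, had 1.04 CPM of Lamb3 and 0.95 CPM of Lama3, each the lowest of its group and above every control tumor. These levels rest on 11 counts of Lamb3 and 10 of Lama3, against at most 8 and 5 counts in a control tumor. Compared to control, the combination calls of Lamb3, Lama3, Itga7 and Itga10 were each lost with the epidermal, the macrophage or the endothelial score in the fit, and that of Itga6 remained in all 3. In these fits the log2 fold changes were 1.54 to 2.73 for Lamb3, 1.32 to 2.48 for Lama3, 0.60 to 2.26 for Itga7 and 2.88 to 3.59 for Itga10. The Lamb3 call from trametinib was lost with the epidermal, macrophage or fibroblast score and without both muscle-rich tumors, at log2 fold changes of 4.06 to 5.68. The part of these marker levels in the differences was not tested beyond these fits.

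After cediranib, 0 of 31 tested members were called at any fold, as were 0% of all genes, and the lowest FDR was 0.999. At an unadjusted p under 0.05 there were 4 members and 557 of all genes, and DESeq2 called 0 members. Among them were Lama3, Lamb3 and Lama4, named after their values were seen, with log2 fold changes of 2.00, 1.89 and -1.61. The contrast for an interaction of the drugs, the effect of cediranib with trametinib minus that without it, passed for 0 members and 0% of all genes. Here 3 members had an unadjusted p under 0.05, against 909 of all genes, and DESeq2 called 0 members. They were Lamb3 (3.34, SE 1.13, FDR 0.665), Itga6 (0.80, SE 0.29, FDR 0.682) and Itga3 (0.72, SE 0.25, FDR 0.665).

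**Figure D5:**
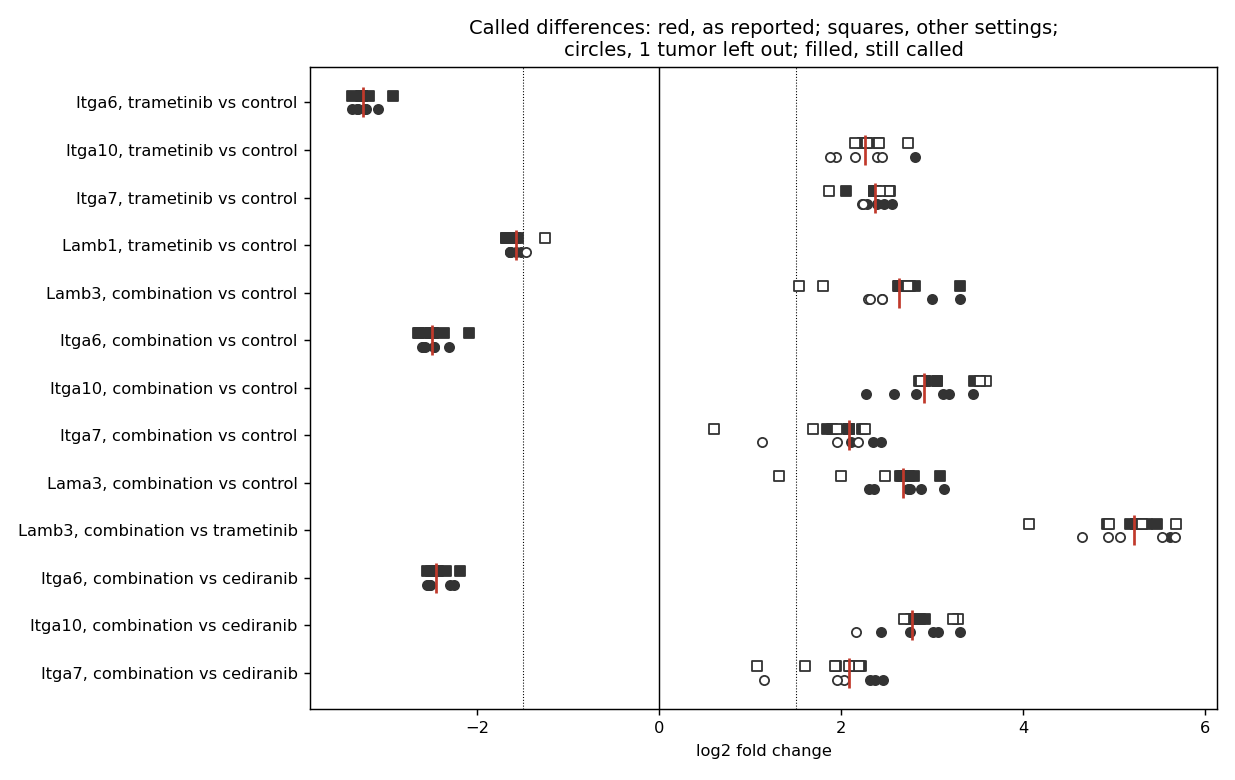
Log2 fold change (horizontal axis) of the 13 called differences as reported (red ticks), under 11 other settings (squares) and with 1 tumor left out (circles), filled where still called. All points of Itga6 are filled, and the direction of no called difference turned.

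Partners of the chains were counted from lists of basement membrane, ligand and linker genes. Of 15 tested basement membrane genes, 1 was called higher and 1 lower after trametinib, and 1 higher and 3 lower after the combination compared to control. Col4a5, the collagen IV alpha5 chain, rose from 6.22, 1.11 and 5.66 CPM to 23.8, 18.7 and 18.7 CPM after trametinib (log2 fold change 2.23, SE 0.48, FDR 0.0185). It had 24.3, 28.6 and 19.2 CPM after the combination (2.46, SE 0.49, FDR 0.0107). Frem1, a matrix protein of the dermal-epidermal junction, fell in both, with log2 fold changes of -4.23 (FDR 0.0107) and -3.49 (FDR 0.016), from at most 3.65 CPM. Nid2, which links laminin to collagen IV, and Col18a1, the source of endostatin, fell after the combination by 2.78 and 1.56 on the log2 scale (FDR 0.0198 and 0.00412).

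Of 12 tested genes that activate integrins or link them to actin, 2 were called lower in both comparisons. Fermt3, the kindlin-3 of blood and endothelial cells, had 34.2, 34.1 and 35 CPM in control tumors, 8.53, 13.3 and 12.3 CPM after trametinib and 8.99, 14.3 and 10.8 CPM after the combination. Its log2 fold change was -1.6 in both (FDR 0.00569 and 0.00667). Parvb, beta-parvin, had log2 fold changes of -2.29 (FDR 0.000342) and -1.54 (FDR 0.00391). Of 16 tested integrin ligands outside the basement membrane, 0 were called after trametinib and 3 were called lower after the combination. These were Ctgf, Tnc and Cyr61, with log2 fold changes of -3.42, -2.87 and -1.66 (FDR 0.0296, 0.0285 and 0.0394). The 8 tested other laminin receptors, 6 tetraspanins and 4 hemidesmosome genes had 0 calls in either comparison.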

How the data were processed

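RNA sequencing counts of 12 SVR xenograft tumors, 3 each of control, trametinib, cediranib and combination, were grouped by their titles and treatment labels. The authors' table holds unnormalized counts, deposited per gene after reads were aligned to GRCm38 with STAR 2.7.1a and assigned with featureCounts 1.6.0, per the labels. The sources used here give no strand or multimapping setting. Overlapping genes may therefore share reads. The table left 0 sample columns unused and held 0 pairs of identical libraries.

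Counts were filtered with filterByExpr (minimum count 10, minimum total 15), scaled with TMM (factors 0.908 to 1.10) and fitted by edgeR 4.0.16 (quasi-likelihood test, R 4.3.3), all tumors together. The fold minimum is that of the study. SE was the absolute log2 fold change over the square root of F, and the prior count for log2 CPM was 2. The biological coefficient of variation was 27.2%. CPM per kilobase used the exonic length in the table. Alternatives used DESeq2 1.42.0, other scaling, no filter, only the compared groups, a replicate block, marker scores (mean log2 CPM of a list) and leaving out tumors.

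Same-numbered tumors were not paired by the labels, and the correlations of their deviations ran from -0.219 to 0.356. The members, lists and tests were chosen with earlier results of these data known. Named were all members called in any comparison, Itga6, Itga3, Itga7, Itgb4, Itgb1, Itga5, Itgav, Itgb3, Lama4, Lama5, Lamb1, Lamc1, Lama3 and Lamb3, and partner genes called in the trametinib or combination comparison with control. Lamb2, Itgb5, Itgb6, Itga1, Itga2, Itga9 and Itga11 lie outside that rule and were named after their values were seen. So were the marker genes Dsp, Emcn, Klf5, Ivl, Ppl, Col3a1 and Mrc1. The values of 1 further tested member are not reported here, and counts over members include it. Overlaps came from GENCODE M21, whose coordinates equal those of the table for 30 of the 39 members.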

Additional observations from a re-analysis of the deposited data

How the results depend on the processing

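For trametinib compared to control the count of called members (4) was 2 with the endothelial score in the model and 2 without both muscle-rich tumors, and 2 to 3 with 1 tumor left out. With the endothelial score these were Itga6 and Itgb5 (higher), so 1 of the 4 calls remained. Without both muscle-rich tumors they were Itga6 and Lamb1. For the combination compared to control (5) the count was 10 without the filter on low counts and 8 with DESeq2. It was 1 with the epidermal, macrophage or endothelial score. With 1 tumor left out it was 3 to 6, the lowest without control replicate 3. For the combination compared to trametinib (1) it was 0 with the epidermal, macrophage or fibroblast score, 0 without both muscle-rich tumors, and 0 to 1 with 1 tumor left out. For the combination compared to cediranib (3) it was 5 with no fold minimum, 1 with the macrophage score, and 2 to 4 with 1 tumor left out. With the endothelial score 3 members were again called, but these were Itga6, Lamb2 and Itgb5, with 1 shared with the reported calls. For cediranib compared to control the count was 1 without the filter (Lama4) and 0 otherwise. The fits with the endothelial or fibroblast score and those without both muscle-rich tumors were chosen after seeing the data. The cause of these shifts was not tested.

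Of 627 gene values under alternatives, 352 from other settings and 186 with 1 tumor left out kept their direction and call. Directions turned in differences that were not called. For trametinib, the endothelial score gave 0.0385 for Lamc1, 0.0399 for Itgav and 1.65 for Lama4, the fibroblast score 0.00935 for Itgav and -0.25 for Itgb1, and the epidermal score -0.13 for Itgb1. For the combination, the endothelial score gave 0.30 for Lamc1, 0.24 for Itgb1 and 0.79 for Lama4. Itgb1 was 0.35 with the epidermal and 0.11 with the macrophage score and 0.0815 with library totals alone. With 1 tumor left out, the trametinib values ran from -0.21 to 0.0713 for Itgav, -0.19 to 0.25 for Itgb1 and -1.27 to 0.27 for Lama4, and the combination value of Itgb1 from -0.25 to 0.18.

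The fit with a replicate block called 3 members for trametinib compared to control, without Itga10, and changed no other count of called members. The numbers do not mark pairs here. At this depth, members under 1 CPM rest on few reads.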
